A study of Arabidopsis thaliana and Solanum lycopersicum with 40 samples.

Results

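Transcript levels of 9 transcription factor genes that regulate the root stem cell niche were followed in Arabidopsis thaliana roots over 6 times of shade. They were chosen by identifier as PLT1 (AT3G20840), PLT2 (AT1G51190), PLT3 (AT5G10510, also named AIL6), BBM (AT5G17430), SHR (AT4G37650), SCR (AT3G54220), JKD (AT5G03150), MGP (AT1G03840) and WOX5 (AT3G11260), 9 of the 33557 genes in the deposited table. Seedlings of the accession Col-0 had grown on MS agar in constant white light for 5 days. They were then moved to shade or left unshaded for 30 min, 3 h, 7 h, 1 d, 3 d or 5 d before whole roots were frozen for RNA sequencing. Each of the 12 groups of light and time held 2 libraries, a and b, which gave 24 libraries. The series also holds 16 tomato libraries, which were not used here. All plants were of the same wild-type accession, and nothing in the labels says that both libraries of a group came from separate plates, so the p-values measure the spread between these libraries, which may be technical.

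The root tip renews itself from a small group of slowly dividing cells, the quiescent centre, and the stem cells around it. PLETHORA proteins form a gradient along the meristem that sets stem cell identity, division and differentiation according to dose. SHORT-ROOT (SHR) is made in the central cylinder, moves into the neighbouring cell layer and there activates SCARECROW (SCR), with which it patterns the ground tissue and positions the niche. The zinc finger proteins JACKDAW (JKD) and MAGPIE (MGP) bind SHR and SCR, and the homeodomain protein WOX5 marks the quiescent centre and keeps the stem cells below it undifferentiated.

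PLT1, PLT2, PLT3 and SHR were lower in shaded than in unshaded roots at 5 d, at 0.585 (PLT3) to 0.742 (SHR) times the unshaded level on the scale fitted. MGP was lower and JKD higher in shade in the middle of the course. WOX5 passed no test in 11 comparisons, where limma gave it no unadjusted p under 0.05 either.

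Promoters of the genes with the largest or longest-lasting differences, PLT3, JKD and MGP, are printed because each carries a different set of the letters searched. The sequences come from the RefSeq genome TAIR10.1 and cover the 300 bases before the annotated start of the gene, 5' to 3' on the strand of the gene. The deposited table holds no coordinates, and the submitters' processing notes name TAIR10. Capitals mark matches, on either strand, to CACGTG (the G-box, bound by bZIP and bHLH factors), TGTCTC or TGTCGG (auxin response elements), and TTGACC or TTGACT (W-boxes, bound by WRKY factors).

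PLT3 promoter, chr5:3315101-3315400, plus strand: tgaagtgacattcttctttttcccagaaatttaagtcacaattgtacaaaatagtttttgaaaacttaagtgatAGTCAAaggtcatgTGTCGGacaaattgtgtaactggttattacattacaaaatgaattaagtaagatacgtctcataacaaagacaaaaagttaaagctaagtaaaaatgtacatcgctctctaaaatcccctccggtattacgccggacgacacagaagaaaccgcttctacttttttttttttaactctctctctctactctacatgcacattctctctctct
JKD promoter, chr5:745121-745420, plus strand: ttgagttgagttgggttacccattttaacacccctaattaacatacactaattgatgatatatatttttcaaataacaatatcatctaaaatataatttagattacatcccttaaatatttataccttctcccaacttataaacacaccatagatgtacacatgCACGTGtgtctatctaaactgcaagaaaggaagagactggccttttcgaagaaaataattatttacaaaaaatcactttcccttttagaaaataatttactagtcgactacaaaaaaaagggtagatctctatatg
MGP promoter, chr1:970335-970634, minus strand: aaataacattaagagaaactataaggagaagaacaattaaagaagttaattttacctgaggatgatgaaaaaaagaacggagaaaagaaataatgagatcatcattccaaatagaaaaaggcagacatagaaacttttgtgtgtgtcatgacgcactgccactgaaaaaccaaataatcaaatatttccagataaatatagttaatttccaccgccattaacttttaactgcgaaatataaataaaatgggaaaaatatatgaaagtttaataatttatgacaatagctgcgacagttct

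PLT3 held TGTCGG 212 bases before its start and TTGACT, read on the other strand as AGTCAA, 226 bases before it. JKD held CACGTG 136 bases before its start, and MGP held none of the 5 motifs in this window. Among the other members, PLT1 held TGTCGG 181 bases before its start, and BBM held TGTCTC 195 and TTGACT 165 bases before its start. No match to these letters lay in the windows of PLT2, SHR, SCR and WOX5. Over 27438 promoters of the same length, CACGTG was found in 7.09%, TGTCTC in 13.0%, TGTCGG in 4.91%, TTGACC in 14.0% and TTGACT in 21.9%. A match describes the letters and is not a shown binding site.

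In the same annotation, the 4 PLETHORA genes lie on chromosomes 3 (PLT1, 7300444 to 7303693), 1 (PLT2, 18977176 to 18980618) and 5 (PLT3, 3315401 to 3320323, and BBM, 5742393 to 5745748), and each has 9 exons. SHR, on chromosome 4 (17691687 to 17693859), has 1 exon, and SCR, on chromosome 3 (20069987 to 20072878), has 2. JKD lies on chromosome 5 (745421 to 749028), MGP on chromosome 1 (967470 to 970334) and WOX5 on chromosome 3 (3527280 to 3528440). None of the members' transcripts shared a run of 50 bases with another place in the genome. PLT3 overlaps AT5G10520, on the opposite strand, by 454 bases. Whether reads were counted by strand is not given in the sources used here, so reads from the overlap cannot be assigned between PLT3 and AT5G10520.

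Levels are FPKM, fragments scaled by transcript length and by sequencing depth, as the authors deposited them. They can therefore be compared between genes. SCR had the highest mean, 22.3 ± 1.87 FPKM (SD over 24 libraries), and PLT3 followed with 20.3 ± 2.87, SHR with 19.4 ± 1.57 and JKD with 18.6 ± 2.0 FPKM. This order was loose: SCR lay above PLT3 in 20 of 24 libraries, PLT3 above SHR in 18 and SHR above JKD in 16. MGP averaged 13.7 ± 2.03, PLT1 6.09 ± 0.833, BBM 4.58 ± 0.748, PLT2 4.24 ± 0.658 and WOX5 2.53 ± 0.483 FPKM. JKD exceeded MGP in 23 libraries, MGP exceeded PLT1 and PLT1 exceeded BBM in all 24, BBM exceeded PLT2 in 17, and PLT2 exceeded WOX5 in all 24. The ranges over libraries overlapped between all neighbours in this order except MGP and PLT1. Even so, the higher gene of each pair led in 16 or more of the 24 libraries.

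**Figure D1:**
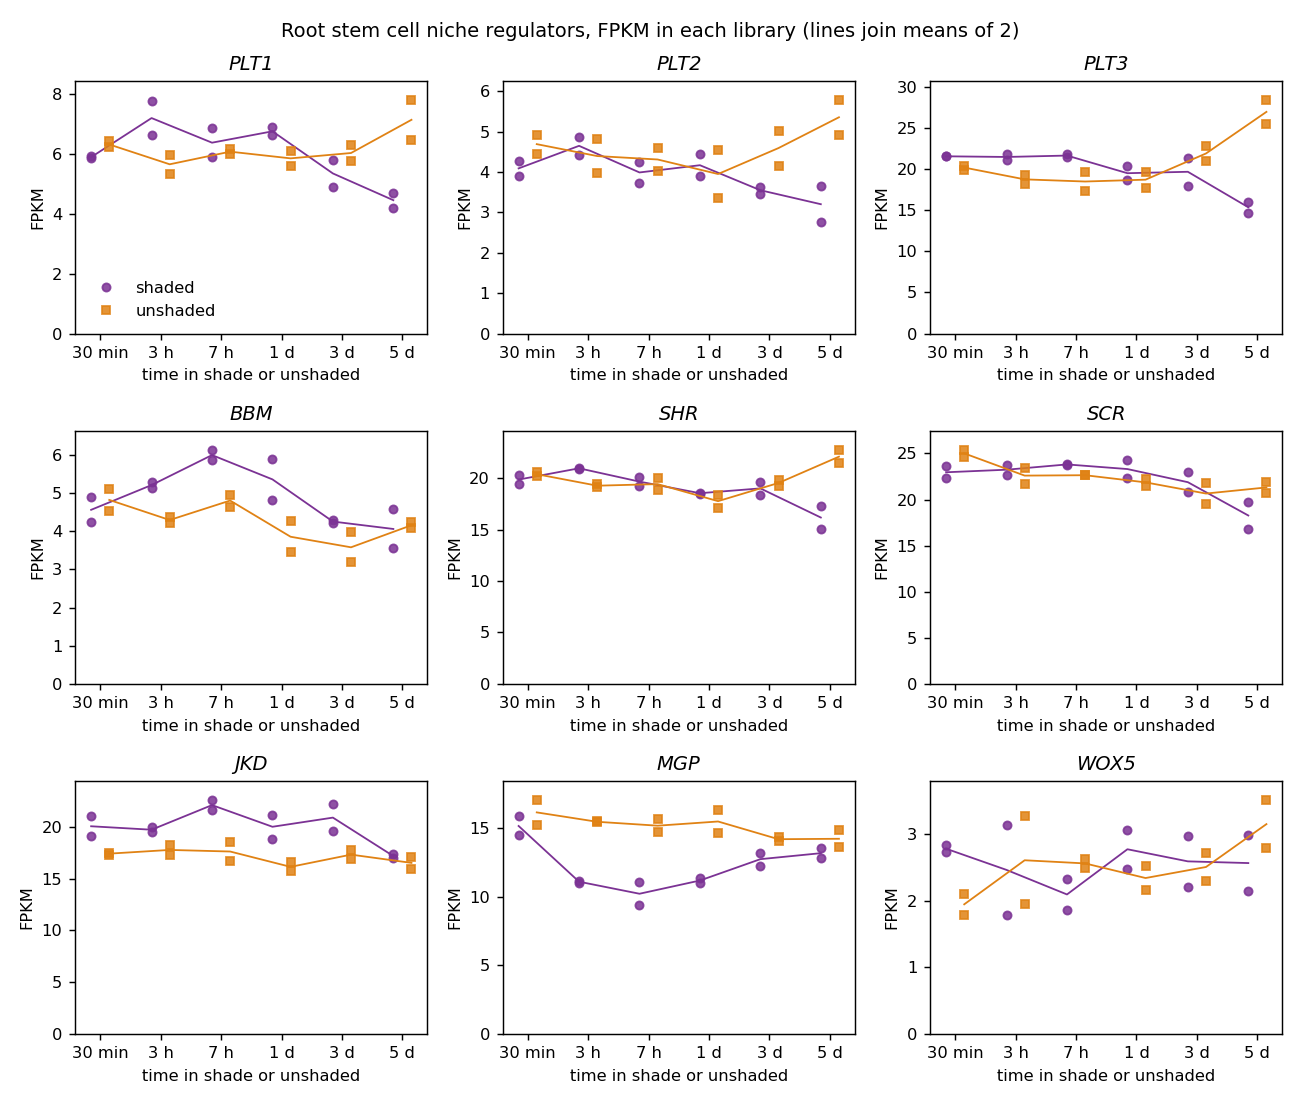
FPKM of each of the 9 genes (vertical axis, from 0) against time (horizontal axis) in shaded roots (purple circles) and unshaded roots (orange squares). Each point is 1 library and lines join the means of 2. The light regimes part at 5 d for PLT1, PLT2, PLT3, SHR and SCR. PLT3 has 14.7 and 16.0 FPKM in shade at 5 d against 28.4 and 25.4 unshaded. They part from 3 h to 5 d for MGP, called from 3 h to 1 d, and from 30 min to 3 d for JKD.

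Fold changes are shaded minus unshaded on the scale log2(FPKM + 1), which understates the change of low genes such as WOX5. They were fitted with limma across the 19553 genes with a mean of at least 1 FPKM, all 9 members among them, and a call needed an adjusted p under 0.05, with Benjamini-Hochberg adjustment over all genes tested. The median fold change of all genes lay between -0.07 at 5 d and 0.03 at 3 h. Of the 54 effects of 9 genes at 6 times, 14 were called, 6 higher and 8 lower in shade, against 19.9% higher and 19.9% lower over all genes and times. No member was called at 30 min, where limma called 3.69% of all genes higher and 2.29% lower, and 1 member, JKD, had an unadjusted p under 0.05. FPKM sums ran from 884979 to 994315 per library. Depth relative to the geometric mean, read from steps among the low values, ran from 0.843 to 1.47, and absolute depth is unknown. Both libraries of a group correlated at r of 0.977 to 0.984 across genes. As a check of the tissue, the shoot meristem genes STM, WUS and CLV3 stayed at or under 0.131 FPKM, with WUS at 0 in 23 of 24 libraries. Of the other shoot meristem and boundary genes listed, KNAT1 had 4.13 to 15.8 FPKM and CUC1 0 to 2.30 FPKM. The photosynthesis gene RBCS1A was present at 14.1 to 71.4 FPKM and was higher in shade on average (+0.77). At 5 d its groups overlapped, with 48.8 and 58.7 FPKM in shaded roots, against 63.2 and 49.2 FPKM in unshaded roots. Of the 4 shoot markers tested, 0 were called higher and 2 lower at 5 d, against 22.2% and 33.7% of all genes. At 7 h 2 were higher and 1 lower, against 21.3% and 20.6%. The counts at 1 d were the same, against 28.3% and 22.6%. At 3 d 2 were higher and none lower, against 28.6% and 29.6%, with changes from -0.16 to +1.56. At 3 h 1 was higher and none lower, against 15.2% and 10.5%. None was called at 30 min. The part of shoot tissue in the member values was not tested.

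Of the 4 PLETHORA genes, PLT1, PLT2 and PLT3 were lower in shade at 5 d and BBM was not called. Of the 9 members, 5 were called lower at 5 d, against 33.7% of all genes, and none higher, against 22.2%, with none higher at an unadjusted p under 0.05 either. PLT3 had 14.7 and 16.0 FPKM in shaded roots at 5 d, against 28.4 and 25.4 FPKM in unshaded roots. Both shaded values lay below every other PLT3 value, shaded or unshaded, and both unshaded values lay above every other. The fitted change was -0.77 ± 0.08 (SE; 95% interval -0.95 to -0.59; adjusted p = 2.25e-06 by limma). At 3 d PLT3 had stood at 17.9 and 21.4 FPKM in shaded roots, against 22.8 and 21.0 FPKM in unshaded roots, and was not called.

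PLT1, which with PLT2 maintains the meristem redundantly, had 4.20 and 4.71 FPKM in shaded roots at 5 d, against 7.81 and 6.47 FPKM in unshaded roots. The groups were apart, with a change of -0.57 ± 0.10 (SE; adjusted p = 0.000173, limma). PLT2 had 2.75 and 3.65 FPKM in shaded roots at 5 d, against 5.79 and 4.92 FPKM in unshaded roots. Here too both shaded libraries lay below both unshaded ones, with a change of -0.60 ± 0.13 (SE; adjusted p = 0.00148, limma). The ratio of PLT1 to PLT2 within a library ranged from 1.29 to 1.77 in shaded and from 1.24 to 1.68 in unshaded roots over the whole course, and these ranges overlapped.

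BBM, the PLETHORA gene best known for inducing embryos when overexpressed, did not share the difference at 5 d. It had 3.55 and 4.58 FPKM in shaded roots at 5 d, against 4.24 and 4.09 FPKM in unshaded roots, and the groups overlapped (-0.03, 95% interval -0.28 to 0.21). From 3 h to 3 d both shaded libraries were above both unshaded ones at each time. BBM was called at 1 d, where it had 5.91 and 4.82 FPKM in shaded roots, against 4.27 and 3.45 FPKM in unshaded roots (+0.39 ± 0.12, SE; adjusted p = 0.0108, limma). That call was lost without shaded 1 d library a (+0.27, adjusted p = 0.125) or unshaded 1 d library b (+0.27, adjusted p = 0.126). Averaged over the 6 times, BBM was higher in shade by 0.17 ± 0.05 (SE; adjusted p = 0.00547, limma). The ratio of BBM to PLT3 within a library was 0.242 to 0.286 in shaded and 0.149 to 0.161 in unshaded roots at 5 d. At 30 min the same ratio was 0.197 to 0.228 in shaded and 0.222 to 0.257 in unshaded roots, which overlapped.

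Earlier in the course, 2 PLETHORA calls went in the other direction. PLT1 was higher in shade at 3 h, with 7.76 and 6.64 FPKM in shaded roots, against 5.34 and 5.97 FPKM in unshaded roots (+0.30 ± 0.10, SE; adjusted p = 0.0373, limma). PLT3 was higher in shade at 7 h, with 21.8 and 21.4 FPKM in shaded roots, against 19.6 and 17.3 FPKM in unshaded roots (+0.22 ± 0.08, SE; adjusted p = 0.0470, limma). Each call hung on single libraries. PLT1 at 3 h had an adjusted p of 0.261 and a change of 0.20 without shaded library a, 0.201 without unshaded library a and 0.0504 without unshaded library b. PLT3 at 7 h had an adjusted p of 0.162 without shaded library a, 0.102 without shaded library b and 0.341, with a change of 0.13, without unshaded library b. Without the filter on low values their adjusted p-values were 0.0553 and 0.0644. At 3 h, 1 member was called higher and 1 lower, against 15.2% and 10.5% of all genes.

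**Figure D2:**
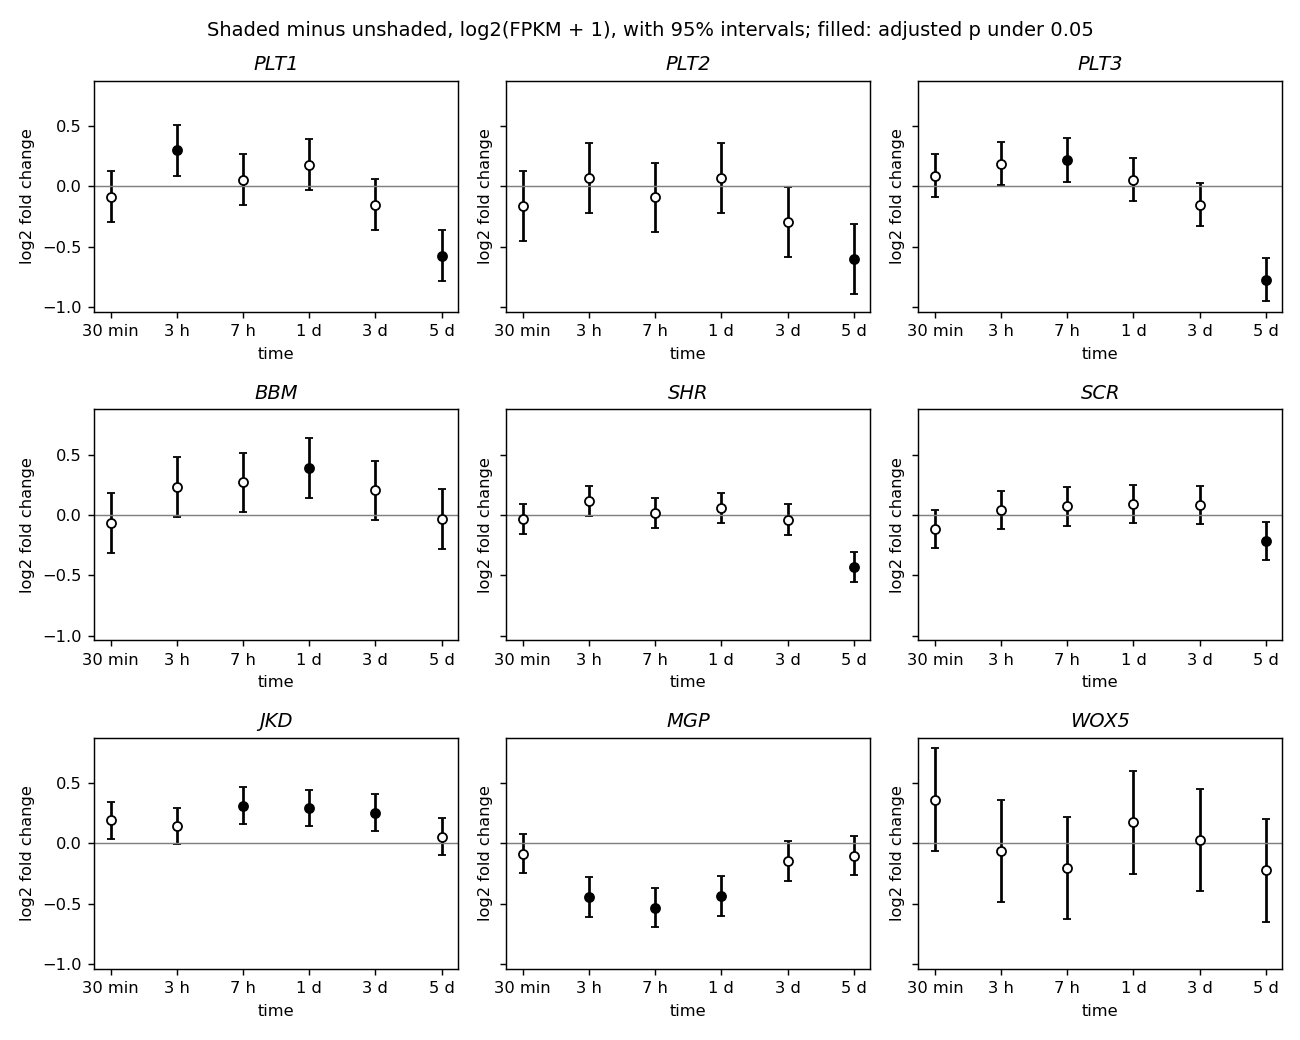
Fold change of each member, shaded minus unshaded on the log2(FPKM + 1) scale (vertical axis), at each time (horizontal axis), with 95% intervals from limma. Filled points had an adjusted p under 0.05. PLT1, PLT2, PLT3, SHR and SCR were called lower at 5 d (-0.22 to -0.77), MGP lower from 3 h to 1 d, and JKD higher from 7 h to 3 d.

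SHR and SCR, the GRAS-family pair, differed late and to unequal extents. SHR had 15.1 and 17.3 FPKM in shaded roots at 5 d, against 22.8 and 21.4 FPKM in unshaded roots. The groups did not overlap, and the change was -0.43 ± 0.06 (SE; 95% interval -0.55 to -0.31; adjusted p = 2.03e-05 by limma). At the 5 earlier times SHR lay between 18.4 and 21.0 FPKM in shaded and between 17.1 and 20.6 FPKM in unshaded roots, with no call. SCR had 16.8 and 19.8 FPKM in shaded roots at 5 d, against 21.9 and 20.7 FPKM in unshaded roots (-0.22 ± 0.07, SE; adjusted p = 0.0215, limma). The SCR call was lost without shaded 5 d library a (-0.10, adjusted p = 0.303) or unshaded 5 d library a (-0.18, adjusted p = 0.127), and also after median-of-ratios scaling (-0.14, adjusted p = 0.0939) or scaling to equal sums (-0.18, adjusted p = 0.0651). At 5 d the libraries had an SHR to SCR ratio of 0.875 and 0.899 in shade, against 1.03 and 1.04 in unshaded roots, a difference noticed in these data and given without a test. SHR is made in the stele. The summed level of 5 stele markers at 5 d was 111 to 122 FPKM in shaded and 66.5 to 73.1 FPKM in unshaded roots. Of these markers 1, the phloem sucrose transporter gene SUC2, was called higher at 5 d and none lower, against 22.2% and 33.7% of all genes. SUC2 had 64.8 and 68.7 FPKM in shaded roots, against 25.6 and 22.9 FPKM in unshaded roots, which was most of the difference between the sums. The other 4 were not called, with changes down to -0.54, and the median change of the 5 was +0.21. Endodermis markers, the tissue of SCR, summed to 272 to 293 FPKM in shaded and 223 to 271 FPKM in unshaded roots. Of these 6 markers, limma called 2 higher and 1 lower at 5 d, against 22.2% and 33.7% of all genes. The part of either tissue in the SHR and SCR values was not tested.

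The zinc finger partners of SHR and SCR moved earlier and in opposite directions. MGP, a target of SHR and SCR, had 11.2 and 11.0 FPKM in shaded roots at 3 h, against 15.5 and 15.4 FPKM in unshaded roots (-0.45 ± 0.08, SE; adjusted p = 0.000558, limma). At 7 h it had 11.1 and 9.38 FPKM in shaded roots, against 14.7 and 15.6 FPKM in unshaded roots (-0.53 ± 0.08, SE; adjusted p = 5.77e-05, limma). The difference was similar at 1 d, with 11.3 and 11.0 FPKM in shaded roots, against 14.7 and 16.3 FPKM in unshaded roots (-0.44 ± 0.08, SE; adjusted p = 0.000241, limma). At each of these times the shaded libraries lay well below the unshaded ones. By 5 d MGP stood at 13.5 and 12.8 FPKM in shaded roots, against 14.8 and 13.6 FPKM in unshaded roots, still apart but not called (-0.10, 95% interval -0.27 to 0.06).

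JKD, which restricts the movement of SHR and sustains SCR expression, was higher in shade in both libraries at every time from 30 min to 3 d. It had 21.6 and 22.6 FPKM in shaded roots at 7 h, against 18.5 and 16.7 FPKM in unshaded roots (+0.31 ± 0.07, SE; adjusted p = 0.00255, limma). At 1 d it had 21.2 and 18.9 FPKM in shaded roots, against 16.6 and 15.7 FPKM in unshaded roots (+0.29 ± 0.07, SE; adjusted p = 0.00312, limma). JKD was again higher at 3 d, with 19.6 and 22.2 FPKM in shaded roots, against 16.9 and 17.8 FPKM in unshaded roots (+0.26 ± 0.07, SE; adjusted p = 0.00647, limma). The call at 1 d was lost by a narrow margin without shaded 1 d library a (+0.21, adjusted p = 0.0503), and that at 3 d without shaded 3 d library b (+0.17, adjusted p = 0.103) or unshaded 3 d library a (+0.22, adjusted p = 0.0563). At 5 d the groups overlapped, with 17.3 and 17.0 FPKM in shaded and 17.1 and 15.9 FPKM in unshaded roots.

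At 7 h, 2 members were called higher and 1 lower, against 21.3% and 20.6% of all genes. The counts at 1 d were also 2 and 1, against 28.3% and 22.6%. At 3 d, 1 member was called higher, against 28.6%, and none lower, against 29.6%, with 1 lower (PLT2) at an unadjusted p under 0.05. These counts were not tested against the background shares.

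The ratio of JKD to MGP within a library is free of library scaling. It ranged from 1.28 to 2.41 over the 12 shaded libraries and from 0.963 to 1.26 over the 12 unshaded ones, with no overlap. In shade it peaked at 7 h (1.95 and 2.41, against 1.07 and 1.26 in unshaded roots), and at 5 d it was 1.28 and 1.33, against 1.15 and 1.17 in unshaded roots. This ratio was formed after the values were seen and is given as a description. JKD and MGP act in the ground tissue, and the summed level of 6 endodermis markers was higher in shade at some of these times. At 3 h, when MGP was already called, the sums overlapped, at 278 to 329 FPKM in shaded and 286 to 292 FPKM in unshaded roots. Of the 6, limma called none, against 15.2% of all genes higher and 10.5% lower. The sum was 342 to 368 FPKM in shaded and 279 to 281 FPKM in unshaded roots at 7 h, and 363 to 370 FPKM in shaded and 245.2 to 245.4 FPKM in unshaded roots at 1 d. At 3 d it was 292 to 297 FPKM in shaded and 220.3 to 226.5 FPKM in unshaded roots. At 5 d, when the JKD libraries overlapped, the sums were barely apart, at 272.0 to 292.7 FPKM in shaded and 222.9 to 271.4 FPKM in unshaded roots. At that time limma called 2 of the 6 markers higher and 1 lower, against 22.2% and 33.7% of all genes, with changes from -0.75 to +2.50. Averaged over the 6 times, 5 of these markers were higher in shade and none lower, against 34.6% and 35.9% of all genes. CASP5, a builder of the Casparian strip, changed most (+1.56, adjusted p = 1.49e-10 by limma). The part of these markers in the MGP and JKD values was not tested.

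**Figure D3:**
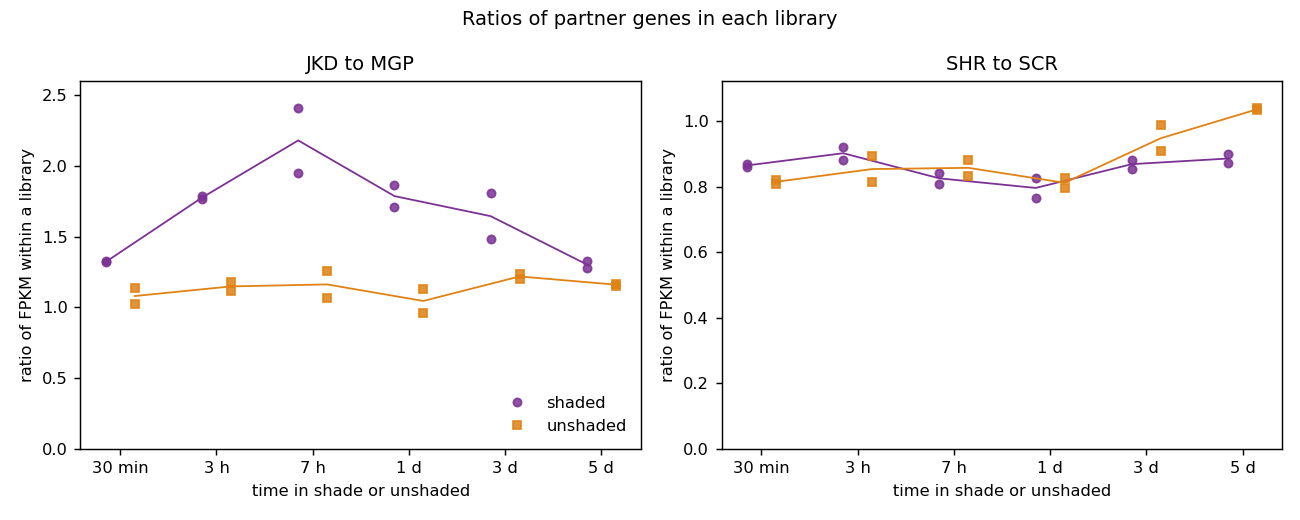
Ratio of FPKM within a library (vertical axis, from 0) for JKD to MGP and for SHR to SCR against time (horizontal axis), in shaded (purple circles) and unshaded roots (orange squares). Points are libraries and lines join means. The JKD to MGP ratio is at least 1.28 in every shaded library and at most 1.26 in every unshaded one, while the SHR to SCR ratio differs most at 5 d (0.875 and 0.899 in shade, 1.03 and 1.04 unshaded).

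WOX5 ranged from 1.79 to 3.51 FPKM and was never called. At 30 min both shaded libraries (2.84 and 2.73 FPKM) were above both unshaded ones (2.11 and 1.79 FPKM), with a change of 0.36 and a 95% interval of -0.06 to 0.79. At 3 h libraries a and b of each group differed more than the groups did, with 3.14 and 1.79 FPKM in shaded roots, against 3.27 and 1.95 FPKM in unshaded roots. The averaged change was 0.01, with a 95% interval of -0.16 to 0.18. WOX5 is active in a handful of cells per root, and its SE of 0.20 at each time was the widest of the 9 members.

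Averaged over the 6 times, MGP was lower by 0.29 ± 0.03 (SE; adjusted p = 6.48e-07, limma) and PLT2 by 0.17 ± 0.06 (SE; adjusted p = 0.0132, limma). JKD was higher by 0.21 ± 0.03 (SE; adjusted p = 1.15e-05, limma), and BBM was the other gene called higher. These 2 genes higher and 2 lower compare with 34.6% and 35.9% of all genes. The averaged PLT2 call rested on 5 d: without that time the change was -0.08 (adjusted p = 0.218).

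The effect of shade differed between times for 5 members by the moderated F-test of the interaction, against 55.8% of all genes. They were PLT3 (adjusted p = 5.72e-05), SHR (0.000748), PLT1 (0.00132), MGP (0.00498) and PLT2 (0.0471). With any 1 library left out the first 4 were still called, whereas PLT2 was called in only 5 of 24 such fits, with adjusted p-values up to 0.165, reached without shaded 5 d library a. Without 5 d only 2 members had an interaction call, PLT1 and MGP, and those of PLT3 (adjusted p = 0.0883) and SHR (0.232) were lost. The mean effect at 1 d, 3 d and 5 d minus that at 30 min, 3 h and 7 h was negative for PLT3 (-0.45, adjusted p = 7.10e-05), PLT1 (-0.27, adjusted p = 0.0116) and SHR (-0.17, adjusted p = 0.00874) by limma. These 3 genes lower and none higher compare with 27.9% and 21.5% of all genes, and no member was higher at an unadjusted p under 0.05. Without 5 d this contrast was -0.08 for PLT1 (adjusted p = 0.491) and -0.02 for SHR (adjusted p = 0.710). After scaling to equal sums the SHR contrast was -0.11 (adjusted p = 0.0606).

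Levels changed with time in both light regimes. Within shaded roots, 7 members changed with time by the moderated F-test, all but PLT2 and WOX5, against 71.4% of all genes. Within unshaded roots 2 did, PLT3 (adjusted p = 0.00102) and SHR (adjusted p = 0.0167), against 34.3% of all genes. The SHR call in unshaded roots was lost without unshaded 1 d library b (0.0681) or unshaded 5 d library a (0.101). In shaded roots the SCR call was lost without shaded 5 d library a (0.0804) and the JKD call without shaded 5 d library b (0.0669). PLT3 was at 28.4 and 25.4 FPKM in unshaded roots at 5 d, where the unshaded values of the other times ran from 17.3 to 22.8 FPKM. In shade it was at 14.7 and 16.0 FPKM at 5 d, where the other times ran from 17.9 to 21.8 FPKM. Time in the unshaded series is also the age of the seedling.

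Genes of dividing cells moved before and with the late PLETHORA difference. All 10 listed markers, among them the mitotic cyclin gene CYCB1;1 and the cytokinesis gene KNOLLE, were lower in shade at 3 d (median -0.67) and at 5 d (median -0.80), and with any 1 library left out all 10 were still called at both times. At 7 h 4 were lower, a count that was 1 without shaded 7 h library a or either unshaded 7 h library, 2 without shaded 7 h library b and 6 without either shaded 5 d library. At 1 d 8 were lower. At 30 min and 3 h limma called none, with 1 at an unadjusted p under 0.05, higher in shade, at each of those times. Of all genes, limma called 2.29% lower at 30 min, 10.5% at 3 h and 20.6% at 7 h. The shares at 1 d, 3 d and 5 d were 22.6%, 29.6% and 33.7%. Their summed level at 3 d was 162 to 178 FPKM in shaded and 271 to 278 FPKM in unshaded roots, while no PLETHORA gene was called. At 5 d the sum was 152 to 176 FPKM in shaded and 279 to 301 FPKM in unshaded roots. In whole roots, fewer meristem cells and less RNA per cell cannot be told apart, and the part of this shift in the PLETHORA and SHR values was not tested. The root cap markers, which neighbour the niche, had overlapping sums at 5 d, 14.0 to 15.9 FPKM in shaded and 14.9 to 18.5 FPKM in unshaded roots. Of these 4 markers, BRN2 was called higher at 5 d (+0.57, adjusted p = 0.00526 by limma) and SMB lower (-0.38, adjusted p = 0.0215). The SMB call was lost without shaded 5 d library a (-0.21, adjusted p = 0.262) or unshaded 5 d library a (-0.21, adjusted p = 0.256). Shaded libraries at 5 d had relative depths of 1.47 and 0.943, against 0.877 and 0.870 for unshaded ones.

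**Figure D4:**
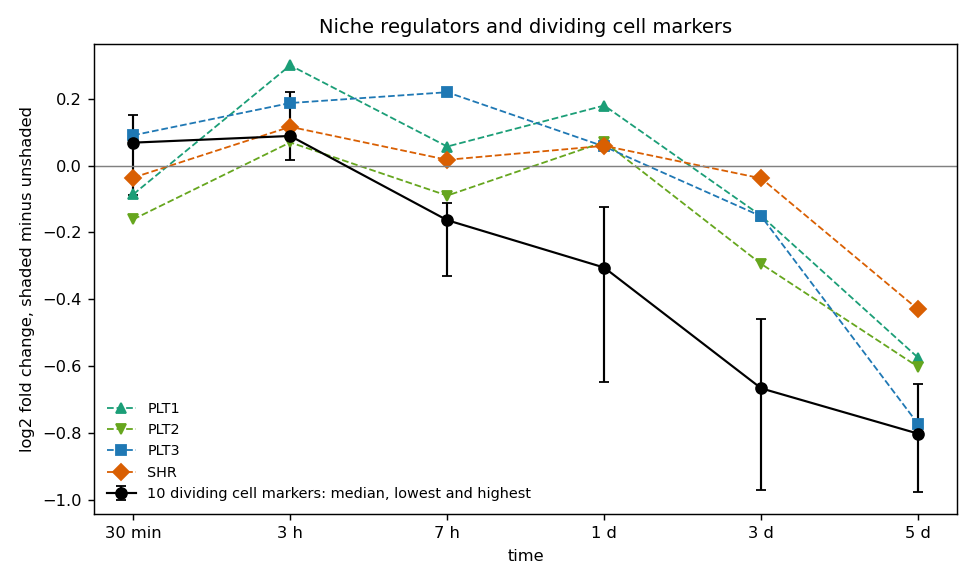
Fold change, shaded minus unshaded on the log2(FPKM + 1) scale (vertical axis), against time (horizontal axis) for PLT1, PLT2, PLT3 and SHR (coloured dashed lines) and for 10 dividing cell markers (black, median with lowest and highest gene). The marker median is -0.67 at 3 d and -0.80 at 5 d, whereas the regulators lie between -0.29 and -0.04 at 3 d and between -0.77 and -0.43 at 5 d.

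The gene that overlaps PLT3, AT5G10520, was higher in shade at 5 d, with 13.8 and 13.4 FPKM in shaded roots, against 5.31 and 6.02 FPKM in unshaded roots (+1.13 ± 0.11, SE; adjusted p = 7.32e-07, limma). That direction was opposite to the one of PLT3 at 5 d. AT5G10520 was also higher in shade at 3 h (+0.44, adjusted p = 0.00836), 7 h (+0.48, adjusted p = 0.00244), 1 d (+0.75, adjusted p = 4.96e-05) and 3 d (+1.19, adjusted p = 3.47e-07) by limma. At 7 h this was the direction in which PLT3 was called (+0.22), and the part of the shared bases in that call was not tested.

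Of 35 further regulators of the niche and meristem that were listed, 29 could be matched by name and 27 of them passed the filter. Averaged over time, 10 were higher in shade, 11 lower and 6 not called, where 34.6% of all genes were higher and 35.9% lower. The median was -0.05, against -0.01 for all genes. At 5 d, 4 were higher, 15 lower and 8 not called, where 22.2% of all genes were higher and 33.7% lower. The median was -0.30, against -0.07 for all genes. Both counts rested in part on single 5 d libraries. Fewer were called higher without shaded 5 d library b, and fewer were called lower without either unshaded 5 d library. The count lower fell most without unshaded 5 d library a, so its excess over 33.7% rests partly on that library. Among those lower at 5 d were the peptide genes RGF1, RGF2 and RGF3, whose products sustain PLETHORA protein in the meristem. AIL7, a relative of the PLETHORA genes, was also lower. AIL7 and RGF1 lay near the filter of 1 FPKM, with means of 1.00 and 1.37 FPKM over the 24 libraries, so their calls rest on low values. These genes were named after their values were seen.

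CYCD6;1, a cyclin gene that SHR and SCR activate at the divisions that separate cortex from endodermis, had 1.14 and 1.61 FPKM in shaded roots at 5 d, against 10.6 and 13.0 FPKM in unshaded roots. Both unshaded values were several times any value before 3 d, and the shaded values were not (-2.43 ± 0.15, SE; adjusted p = 7.47e-09 by limma). At 3 d it had 1.42 and 0.926 FPKM in shaded roots, against 3.71 and 3.76 FPKM in unshaded roots (-1.13 ± 0.15, SE; adjusted p = 1.02e-05 by limma). SHR had not been called at 3 d.

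NUC, the zinc finger gene NUTCRACKER and a relative of JKD and MGP, was higher in shade in both libraries at every time, by 0.33 ± 0.02 on average (SE; adjusted p = 6.62e-09, limma). At 7 h it had 17.2 FPKM in both shaded libraries, against 12.9 and 14.0 FPKM in unshaded roots. NUC was called in the direction of JKD, opposite to that of MGP. TPL, the corepressor that WOX5 recruits, was higher in shade by 0.18 ± 0.02 on average (SE; adjusted p = 6.36e-08, limma). It was called from 3 h to 3 d, but not at 30 min (-0.01, adjusted p = 0.943) or 5 d (+0.09, adjusted p = 0.0539) by limma.

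ANT, the founding member of the family that includes the PLETHORA genes and a promoter of organ growth, was lower in shade from 3 h on. It had 1.96 and 3.20 FPKM in shaded roots at 3 h, against 9.48 and 6.95 FPKM in unshaded roots (-1.37 ± 0.19, SE; adjusted p = 0.000111, limma). At 5 d it had 7.92 and 10.3 FPKM in shaded roots, against 24.3 and 24.6 FPKM in unshaded roots (-1.34 ± 0.19, SE; adjusted p = 3.56e-05, limma). The shaded and unshaded libraries were apart at each time from 3 h, the time at which PLT1 and MGP were the members called.

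**Figure D5:**
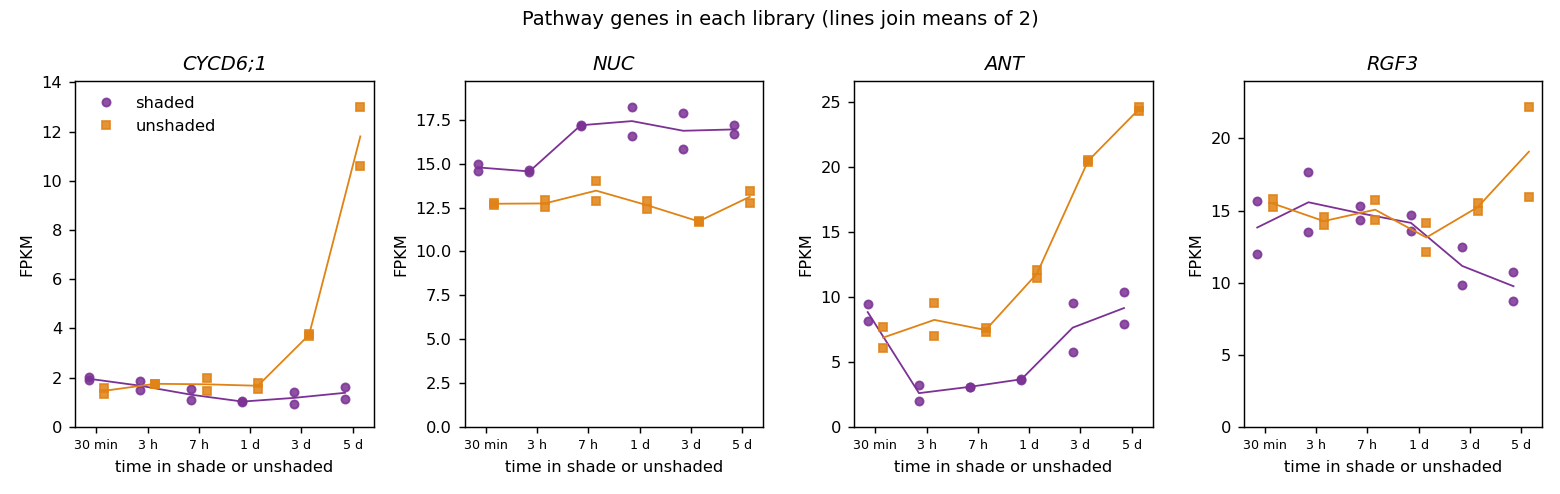
FPKM (vertical axis, from 0) against time (horizontal axis) of CYCD6;1, NUC, ANT and RGF3 in shaded (purple circles) and unshaded roots (orange squares), with 1 point per library and lines through the means. CYCD6;1 stands at 1.14 and 1.61 FPKM in shade and at 10.6 and 13.0 FPKM unshaded at 5 d, and NUC is higher in shade at each time.

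For each member the 2 tested genes with the most similar course were found by Pearson's r of log2(FPKM + 1) over the 12 group means, given as a description. PLT2 was most like RGF3 (r = 0.964), which had 8.74 and 10.8 FPKM in shaded roots at 5 d, against 22.2 and 16.0 FPKM in unshaded roots. PLT1 was most like AT1G65270 (r = 0.964), PLT3 like the pectin methylesterase gene PME5 (r = 0.933), BBM like FAH1 (r = 0.958) and SHR like ACX6 (r = 0.912). SCR was most like AT1G68410 (r = 0.948) and second most like SMB (r = 0.934), a NAC factor of root cap maturation. MGP followed TBL5 (r = 0.977) and DHS1 (r = 0.974). DHS1 encodes an enzyme at the entry of aromatic amino acid synthesis. JKD was most like OLEO3 (r = 0.940) and WOX5 like AT4G10420 (r = 0.911). OLEO3 averaged 1.34 FPKM, near the filter. The group means share libraries and were searched over all tested genes, so each r is the highest or second highest of many.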

How the data were processed

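Per the file headers and labels, the authors deposited 1 table of FPKM values for Arabidopsis, with 33557 genes and 1 column per library, and each column was matched to its sample by title. The submitters' processing notes name Cufflinks 2.1.1 and TAIR10. The aligner and the use of strand in counting are not given in the sources used here. No read counts were used, so the tests are on log2(FPKM + 1). Genes with a mean of at least 1 FPKM over the 24 libraries were kept. limma 3.58.1 (R 4.3.3) fitted 1 mean to each of the 12 groups, with an intensity trend, so all groups shared the spread. Contrasts were shaded minus unshaded at each time, averaged over times, and late minus early. Moderated F-tests covered the interaction and time within each light regime. With 2 libraries against 2, an exact permutation test of 1 gene cannot give a p under 0.333. The fit was tested on simulated data. The members and lists were chosen with earlier results of these data known. Genes named beyond the members are up to 4 of each list, those called in the averaged comparison in order of adjusted p-value, and the 2 genes most like each member. Marker values beside these, the RGF genes, AIL7 and the gene overlapping PLT3 were named after their values were seen. Promoters and gene positions were read from RefSeq TAIR10.1 by identifier. Pseudocount, filter, scaling, replicate block, single time points and single libraries were varied. Scaling to equal sums and leaving out 5 d were added after seeing the data.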

Additional observations from a re-analysis of the deposited data

Results flagged for a closer look

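The effect of shade on 5 members differed between times by the moderated F-test of the interaction in limma. The span between the lowest and the highest log2 fold change over the 6 times was 0.99 for PLT3 (adjusted p = 5.72e-05), 0.87 for PLT1 (adjusted p = 0.00132) and 0.55 for SHR (adjusted p = 0.000748), each with its lowest value at 5 d. PLT2 had a span of 0.67 (adjusted p = 0.0471), also with its lowest value at 5 d, and the call was kept in 5 of 24 fits that each left out 1 library. MGP had a span of 0.45 (adjusted p = 0.00498), with its lowest value at 7 h.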

How the results depend on the processing

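No called fold change of a member reversed. Of 648 member values with 1 library left out, 627 kept their side of the threshold, 13 lost a call and 8 gained one. The 648 cover the shade effect at the time of the library left out, the averaged effect and the late minus early contrast. None of the F-tests is among them. F-test calls lost with 1 library left out, those of PLT2, SHR, SCR and JKD, are given above. Of 693 values under the other settings, which include F-tests, 655 kept their side of the threshold, 34 lost a call and 4 gained one. Among calls gained with 1 library left out, PLT3 was lower at 3 d (-0.27, adjusted p = 0.0230 by limma) without shaded 3 d library b. With 1 library left out, the members called were 0 to 0 at 30 min, 1 to 2 at 3 h, 2 to 3 at 7 h, 1 to 3 at 1 d, 0 to 1 at 3 d and 4 to 5 at 5 d. They were 4 to 6 averaged, 3 to 4 late minus early, 4 to 7 for the interaction, 6 to 7 for time in shaded and 1 to 3 for time in unshaded roots. At 3 h, 1 member was called without the filter, with median-of-ratios scaling, with the replicate block within time points and with each time fitted alone, and at 3 d none (0) was called with each time fitted alone. With the replicate block within time points, 1 member was called for time in unshaded roots. Without 5 d, 1 member was called late minus early, 2 for the interaction, 4 for time in shaded and 0 for time in unshaded roots. The cause was not tested. Fewer samples enter some of these fits, and more genes enter the fit without the filter. Same-letter deviations of shaded and unshaded libraries at a time correlated at -0.029 to 0.065 across genes, so no effect shared by letter was seen. This does not show how the letters a and b were assigned. With each time fitted alone, BBM at 1 d (adjusted p = 0.0883) and JKD at 3 d (0.0575) also lost their calls. Absolute depth is unknown, so what it limits was not tested.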
